A study of Mus musculus with 6 samples.

Results

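The Ly6 family examined here comprises 10 mouse genes, Ly6a, Ly6c1, Ly6c2, Ly6d, Ly6e, Ly6f, Ly6g, Ly6h, Ly6i and Ly6k, whose expression was compared between the livers of L1-Tg and WT mice. The members were chosen by name, and their probes were found through the RefSeq transcript with which the array design labels each probe. Of the 10 genes, 8 were matched to a probe, with 10 probes in all, and these 8 were among the 22326 of 37074 genes on the array that could be tested. Ly6c2 and Ly6g were matched to no probe and were not analysed here.

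L1-Tg mice are hemizygous for human NPC1L1, a cholesterol transporter that takes cholesterol back from bile, under the liver-specific APOE promoter. The transgenic line, B6;D2-Tg(APOE-NPC1L1)20Lqyu/J, had been backcrossed to C57BL/6J for at least 8 generations, and the WT mice were littermates without the transgene. All mice were males, 6 to 12 weeks old across the experiments, and both genotypes were fed a control-fat diet (CFD). Total liver RNA of 2 or 3 mice was pooled per array, with 3 arrays per genotype, and the comparison asked how the livers of the genotypes differed before any high-fat feeding. Transgene insertion in the line was not examined here, and each array value is that of a pool, so p-values measure the spread between pools.

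The 6 one-color arrays lay on 1 slide, and WT arrays occupied row 1 and L1-Tg arrays row 2, so that genotype and row cannot be told apart. The 75th percentile of the signal, to which all values below are scaled, lay between 296 and 378 units of intensity per array, and between 53.1% and 59.2% of the spots were well above background. With 3 arrays per genotype the precision is limited by their number, and the smallest p of an exact permutation test in this design is 0.1. The only matched probe for mouse Npc1l1 was well above background on 3 arrays, with signals of 0.0645, 0.0530 and 0.0493 times the 75th percentile in L1-Tg and 0.0701, 0.0798 and 0.0893 in WT, and as a mouse probe it does not check the human transgene. The 10 hepatocyte markers were well above background on all 6 arrays, with a summed signal of 6985 to 8362 times the 75th percentile in L1-Tg and 7452 to 8579 in WT.

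Ly6 proteins are small, secreted or membrane-anchored proteins built on the 3-finger fold of disulfide-bonded loops that they share with the urokinase receptor and CD59, and most are attached to the outer leaflet of the cell membrane by a glycosylphosphatidylinositol (GPI) anchor. Several are classical surface markers of mouse blood cells, such as Ly6c of inflammatory monocytes, Ly6g of neutrophils and Ly6a, better known as stem cell antigen Sca-1. Ly6a, Ly6c1 and Ly6e are known as genes induced by interferons, and in mouse liver Ly6a and Ly6c1 are also found on endothelial cells.

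In the RefSeq annotation (GRCm38.p6), all 10 members lie in 1 interval of chromosome 15, which starts with Ly6d and ends with Ly6h and holds 37 annotated genes. The members follow in the order Ly6d, Ly6k, Ly6e, Ly6i, Ly6a, Ly6c1, Ly6c2, Ly6g, Ly6f and Ly6h. The promoters of Ly6c1 and Ly6f are shown because these were the members above the unadjusted threshold for which the RefSeq table holds a start site. The capitals mark the TATAAAT and CCAAT motifs, and each stretch is read 5′ to 3′ on the strand of the gene and ends at the base before the start of transcription, at chr15:75048838-75049000 on the minus strand for Ly6c1 and at chr15:75268232-75268420 on the plus strand for Ly6f.
Ly6c1: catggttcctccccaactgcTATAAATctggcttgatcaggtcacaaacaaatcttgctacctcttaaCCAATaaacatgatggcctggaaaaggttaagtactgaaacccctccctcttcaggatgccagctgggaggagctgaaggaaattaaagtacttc
Ly6f: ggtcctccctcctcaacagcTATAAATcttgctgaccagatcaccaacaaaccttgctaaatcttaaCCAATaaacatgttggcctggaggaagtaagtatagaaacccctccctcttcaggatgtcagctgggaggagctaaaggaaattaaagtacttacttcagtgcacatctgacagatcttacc
Over the 157 bases that could be aligned, 142 were identical between the stretches, or 90.4%. Counted from the start of transcription, TATAAAT began at position -143 of Ly6c1 and -169 of Ly6f, and CCAAT at -95 and -122. The same pair of motifs was found in both Ly6g windows, which overlap and hold the same copy. This copy lay at -99 and -51 from one start and at -167 and -119 from the other. Neither window of Ly6c2 held the pair. The window of the other Ly6c1 start held no match because it ends short of the copy marked above. Of all 32851 RefSeq promoter windows (250 bases before to 50 after a start), 3.84% held TATAAAT and 37.4% held CCAAT on either strand. The interferon-related motifs, TTTC followed after any 2 bases by another TTTC (in 3.44% of all windows) and TTCNNNGAA (in 8.3%), had no match on either strand in the 7 windows of these 4 genes, which says only that these letters do not occur there.

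Of the 8 tested members, 5 had a mean signal at least 2-fold higher in L1-Tg liver than in WT liver, namely Ly6a, Ly6d, Ly6f, Ly6c1 and Ly6e, whereas a difference of this size in this direction was seen in 1.04% of all genes tested. Ly6f and Ly6k could be tested only because all of their L1-Tg arrays were well above background, as fewer of their WT arrays were, and the fold of Ly6f was taken partly against WT signals at background. Of the 6 members well above background on all 6 arrays, 4 were at least 2-fold higher. For Ly6a, Ly6c1, Ly6d and Ly6e each L1-Tg array was above each WT array, which held for 7.22% of all genes tested. The remaining members, Ly6h, Ly6i and Ly6k, had mean differences near 0. No member passed limma at a Benjamini-Hochberg adjusted p under 0.05, a threshold that 27 genes, or 0.121%, passed as higher in L1-Tg. At an unadjusted p under 0.05, limma gave 5 members as higher, Ly6f included, against 4.51% of all genes. Limma without moderation of the variances gave 4 members, where 1842 of the 22326 genes tested passed in either direction. With only genes well above background on all 6 arrays tested, limma gave 4 of 6 members. The share over all genes was not computed for that filter. The log2 difference was above 0 for all 8 members and for 42.9% of all genes tested, and its median was 1.42 over the members against -0.033 over all genes tested. After a normexp background correction the median of the members was 0.86, and Ly6h, Ly6i and Ly6k lay below 0. Liver RNA holds the RNA of all liver cell types, so that more RNA per cell and more cells of a type cannot be told apart in any of these values.

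**Figure D1:**
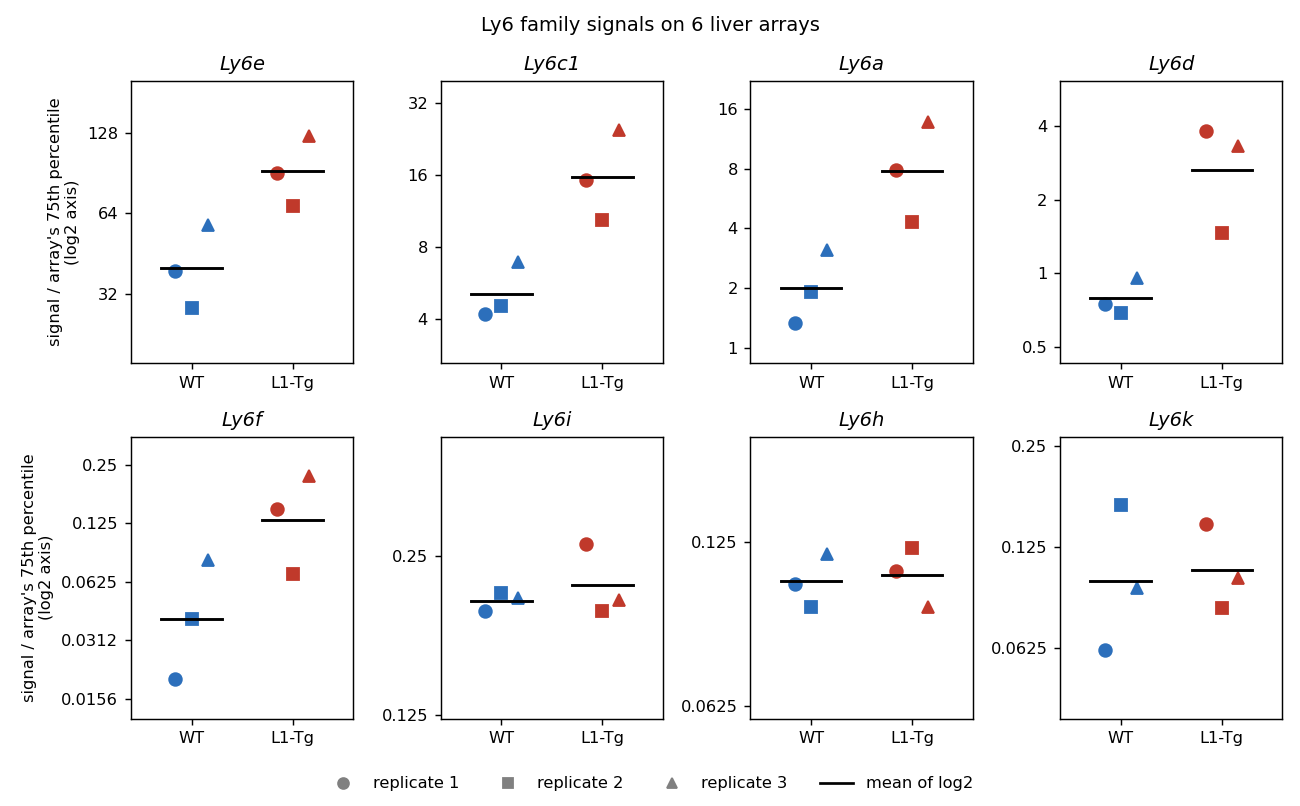
Signal of the 8 tested Ly6 members on each array, as a multiple of the array's 75th percentile on a log2 axis, for WT (blue) and L1-Tg (red); symbols mark the replicate and bars the mean of the log2 values (n = 3 pools per genotype). The red points of Ly6e, Ly6c1, Ly6a and Ly6d all lie above the blue ones, the groups of Ly6f overlap only through L1-Tg 2 and WT 3, and those of Ly6i, Ly6h and Ly6k are intermixed.

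Ly6a encodes Sca-1, the anchored antigen used to sort mouse blood stem cells. Its signal in L1-Tg liver was 7.88, 4.30 and 13.8 times the 75th percentile on arrays 1, 2 and 3, and in WT liver it was 1.34, 1.90 and 3.09 times. The groups did not overlap, but L1-Tg 2 and WT 3 stood close to one another. On the log2 scale the mean was 2.96 ± 0.84 (SD, n = 3) in L1-Tg and 0.99 ± 0.61 (SD, n = 3) in WT. The difference of 1.96 (SE 0.48, 95% confidence interval 0.80 to 3.13) was the largest of the tested members and corresponds to 3.90-fold, with an adjusted p of 0.395 in limma. Leaving out L1-Tg 3, the brightest array, reduced the difference to 1.55, and leaving out L1-Tg 2 raised it to 2.39.

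Ly6c1 encodes a form of Ly6C, which is carried by monocytes, T cells and capillary endothelium, and it was measured by 2 probes. The brighter probe gave 15.2, 10.3 and 24.8 times the 75th percentile in L1-Tg and 4.17, 4.52 and 6.90 times in WT, with all L1-Tg arrays above all WT arrays. The log2 means were 3.98 ± 0.63 and 2.34 ± 0.39 (SD, n = 3 each), a difference of 1.64 (SE 0.35, 95% confidence interval 0.79 to 2.48) or 3.11-fold, with an adjusted p of 0.333 in limma. The other probe, designed to another transcript of the gene, gave 0.442, 0.394 and 0.517 times in L1-Tg and 0.211, 0.262 and 0.376 times in WT. Its groups did not overlap either, with L1-Tg 2 and WT 3 again the closest arrays, but its difference was smaller at 0.71 (SE 0.23, adjusted p of 0.505 in limma over 29428 probes). With the mean of both probes in place of the brighter one, the difference of Ly6c1 was 1.17. The sequences of the probes were not used here. How far labeled RNA of the near-identical Ly6c2, or of other close copies such as those of Ly6a, Ly6i, Ly6f and Ly6g, binds to these probes was not tested.

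Ly6e, known as a receptor of syncytin in the placenta and as an interferon-induced factor that modulates the entry of viruses, had signals of 90.7, 68.4 and 124.6 times the 75th percentile in L1-Tg and 39.0, 28.3 and 58.0 times in WT. Here again the lowest L1-Tg array was L1-Tg 2 and the highest WT array was WT 3, and the gap between them was 0.24 on the log2 scale, against a gap of 0.48 for Ly6a, 0.58 for the brighter Ly6c1 probe and 0.62 for Ly6d. The log2 means of Ly6e were 6.52 ± 0.43 and 5.32 ± 0.52 (SD, n = 3 each). The difference of 1.20 (SE 0.32, 95% confidence interval 0.43 to 1.97) or 2.29-fold had an adjusted p of 0.436 in limma, and it ranged from 0.95 without WT 2 to 1.47 without WT 3.

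Ly6d, a marker of B lymphoid progenitors and of stratified epithelia, gave 3.82, 1.46 and 3.32 times the 75th percentile in L1-Tg and 0.751, 0.687 and 0.954 times in WT. Of the L1-Tg arrays, L1-Tg 1 and L1-Tg 3 were close to each other and L1-Tg 2 was well below both, while the WT arrays differed by no more than 1.39-fold. The log2 means were 1.40 ± 0.75 and -0.34 ± 0.24 (SD, n = 3 each), and the difference was 1.74 (SE 0.37, 95% confidence interval 0.85 to 2.63), or 3.35-fold, with an adjusted p of 0.326 in limma, the smallest of the family. This result depended on L1-Tg 2 more than on any other array: without it the difference was 2.17 and the adjusted p 0.0516 in limma, and without L1-Tg 1 the difference was 1.48.

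Ly6f, a close homolog of Ly6a and Ly6c, was near the detection limit. Its signals were 0.148, 0.0681 and 0.218 times the 75th percentile in L1-Tg, where all 3 arrays were well above background, and 0.0197, 0.0399 and 0.0808 times in WT, where only 1 of 3 arrays was. L1-Tg 2 was lower than WT 3, so the groups overlapped. The log2 difference of 1.71 (SE 0.61, 95% confidence interval 0.22 to 3.19) therefore rests partly on WT signals at background, and its adjusted p in limma was 0.529. Its unadjusted p of 0.030 in limma stayed under 0.05 in 2 of the 6 fits that left out 1 array. After a normexp background correction the log2 difference fell from 1.71 to 0.52.

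The other members gave no difference beyond the spread between pools. Ly6h, expressed mainly in brain, gave 0.110, 0.122 and 0.0947 times the 75th percentile in L1-Tg and 0.105, 0.0948 and 0.119 times in WT on one probe, and its other probe was well above background on no array. The difference of Ly6h was 0.037 (SE 0.14, 95% confidence interval -0.29 to 0.37). Ly6i, an Ly6C-like antigen of myeloid cells, gave 0.263, 0.197 and 0.206 times in L1-Tg and 0.197, 0.213 and 0.208 times in WT. Its difference was 0.10 (SE 0.13, 95% confidence interval -0.22 to 0.42), so that the upper bound lies below the difference of each of the 5 members above. Ly6k, a protein of germ cells needed for sperm migration, gave 0.146, 0.0825 and 0.101 times in L1-Tg and 0.0617, 0.167 and 0.0947 times in WT, where 2 of 3 arrays were well above background, and its interval was wide (difference 0.11, SE 0.39, 95% confidence interval -0.83 to 1.05). The adjusted p of these 3 members in limma lay between 0.814 and 0.942, and the direction of each turned in some of the fits that left out 1 array.

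**Figure D2:**
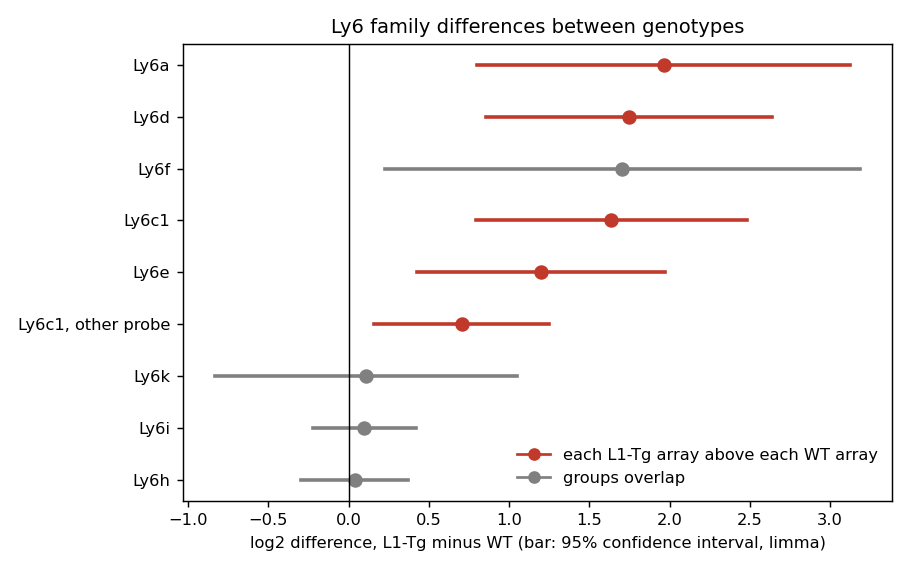
Log2 difference between L1-Tg and WT for each probe of the family that was tested, with its 95% confidence interval from limma; red marks probes whose L1-Tg arrays all lie above the WT arrays. Intervals of Ly6a, Ly6d, Ly6f, Ly6c1 and Ly6e lie above 0 and those of Ly6k, Ly6i and Ly6h include 0.

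The study's own rule for a difference was an index, the difference of the group means divided by the sum of the group SDs, with a modulus above 0.7. By this rule L1-Tg liver had 5 higher and 0 lower members among the 8 with a probe, where 8.61% of all genes on the array passed as higher and 21.7% as lower. These shares include genes too dim to be tested in limma, whereas all 8 members were tested. The shares over the tested genes alone are not given here. The index was 1.50 for Ly6d, 1.31 for the brighter probe of Ly6c1, 1.22 for Ly6e, 1.15 for Ly6a and 0.92 for Ly6f. It was 0.37 for Ly6i, 0.11 for Ly6h and 0.025 for Ly6k.

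The dependence on single arrays followed a shared order. In all 5 members with a difference of at least 1 on the log2 scale, L1-Tg 2 was the lowest L1-Tg array and WT 3 the highest WT array, and L1-Tg 3 was the highest L1-Tg array in 4 of them, with Ly6d as the exception. Across all genes with values on all 6 arrays, L1-Tg 2 was the lowest L1-Tg array for 27.4% and WT 3 the highest WT array for 29.9%. With 1 array left out, the differences of Ly6a, Ly6c1, Ly6d and Ly6e moved by less than 1.5 times and kept an unadjusted p under 0.05 in limma in 6 of 6 fits. The number of members whose groups do not overlap was 4 in 4 of these 6 fits and 5 without L1-Tg 2 or without WT 3, the fifth being Ly6f. With fewer arrays, groups fail to overlap more easily in any gene. The share over all genes is not given here for these fits, so their counts are a description only. No member passed the adjusted threshold in any of the 6 fits.

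**Figure D3:**
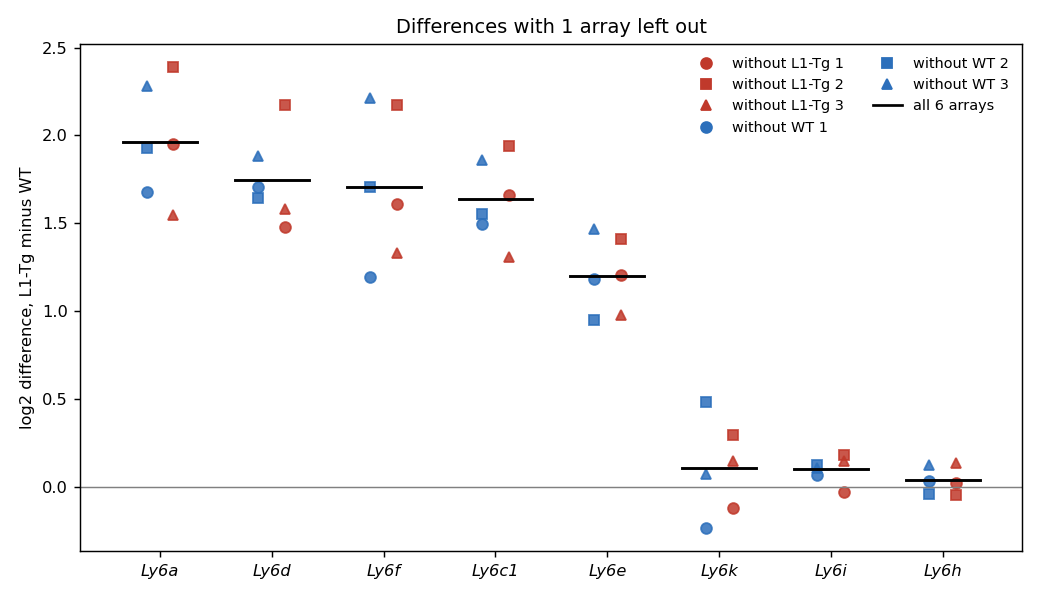
Log2 difference of each tested member with all 6 arrays (bars) and with 1 array left out (symbols; red for an L1-Tg array, blue for a WT array left out). For Ly6a the differences run from 1.55 to 2.39 and for Ly6e from 0.95 to 1.47, whereas those of Ly6k, Ly6i and Ly6h lie on both sides of 0.

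The genes whose signals followed those of a member most closely over the 6 arrays were named by the root mean square (RMS) difference of centered log2 signals, over 13381 genes with a symbol and as a description only. For Ly6c1 they were Ifi27 (RMS 0.16), Usp18 (0.23) and Oas2 (0.24), and for Ly6e they were Ifi27l2a (0.16), Phf11d (0.17) and H2-T10 (0.17), several of which are known as interferon-induced genes. For Ly6a they were Ly6c1 (0.25), Gldn (0.29) and Ly6f (0.29), and for Ly6f they were Gbp3 (0.25), Ms4a7 (0.28) and Ly6a (0.29). Ly6d stood next to Slc35f2 (0.23), Gldn (0.29) and Rarres1 (0.29). Over the 6 arrays the SD of the log2 signal was 0.14 for both Ly6h and Ly6i and 0.48 for Ly6k, and their closest genes were Epha2, Grap and Ubqln4 for Ly6h, Lca5l, Lhx6 and Chrd for Ly6i and Zyg11a, Napsa and Rhcg for Ly6k.

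Position in the cluster did not divide the members by their differences. Ly6i (0.10) lies between Ly6e (1.20) and Ly6a (1.96), and Ly6k (0.11) lies between Ly6d (1.74) and Ly6e. Of the 27 other genes in the interval, 5 were on the array and 1 was tested, namely Gml2, with a log2 difference of -0.13.

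The wider family and the anchor were examined with lists of further genes. Of 38 other genes of the Ly6 and urokinase receptor family, 34 were on the array, 16 were well above background on no array and 14 were tested. Of these 14, 7 were higher and 7 lower, with a median of 0.025, and 13 were well above background on all 6 arrays. At an unadjusted p under 0.05 in limma 2 were higher, against 4.51% of all genes tested. They were Spaca4, a sperm protein, by 0.27, and Cd59b, an inhibitor of complement, by 0.46, with adjusted p of 0.537 and 0.547 in limma. By the index 3 of the 34 were higher and 7 lower, against 8.61% and 21.7% of all genes on the array. The 7 lower ones were well above background on no array. The third by p was Lypd2, with a difference of -0.73 (adjusted p of 0.638 in limma). Of 28 genes that build, attach or remodel the GPI anchor, 27 were tested, 14 higher and 13 lower, with a median of 0.0090. Pgap1, which removes a fatty acid from the anchor, had a difference of -0.63 at an unadjusted p of 0.014 (adjusted p of 0.474 in limma), while those of Pigz and Pigk, which add a mannose and attach the anchor, were 0.54 and 0.22. In both lists 0 genes passed the adjusted threshold.

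Interferon-induced genes were examined as a further list, since several Ly6 genes are known to be induced by interferons. All 27 tested genes of the list were higher in L1-Tg, 24 of them at an unadjusted p under 0.05 and 22 with groups that did not overlap, against 4.51% and 7.22% of all genes, with a median of 1.35. The smallest p-values were those of Trim30a (1.33) and Oasl1 (1.37), regulators of innate immune signaling, and of the antiviral enzyme Rsad2 (1.90). Of the list, 0 genes passed the adjusted threshold, the smallest adjusted p being 0.153 in limma, and 1 gene passed it without WT 3. Its summed signal was 302 to 468 times the 75th percentile in L1-Tg and 112 to 206 times in WT. Within the genotypes, L1-Tg 2 was the lowest L1-Tg array for 20 of 27 genes, L1-Tg 3 the highest for 24, WT 1 the lowest WT array for 22 and WT 3 the highest for 19, where among all genes these shares were 27.4%, 30.3%, 28.3% and 29.9%. Among the 5 Ly6 members with a difference of at least 1, WT 1 was the lowest WT array in 3. The part of an interferon response in the Ly6 values was not tested.

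Marker lists of endothelial, monocyte, Kupffer, neutrophil and lymphocyte cells had median differences between 0.037 and 0.54, against 1.42 over the 8 tested Ly6 members. As among the Ly6 members, 0 of the markers passed the adjusted threshold in limma. Of 17 endothelial markers, 10 were higher and 7 lower in L1-Tg, with a median of 0.037, 0 at an unadjusted p under 0.05 and a summed signal of 163 to 172 times the 75th percentile against 157 to 173 times in WT. The lowest p-values among them were those of Dnase1l3 (-0.28), Tie1 (0.22) and Egfl7 (0.19). Of 11 monocyte markers, 9 were higher, with a median of 0.27 that was 0.71 without WT 2. At an unadjusted p under 0.05 in limma 4 were higher, against 4.51% of all genes tested, among them Plac8 (0.83), F13a1 (0.64) and Chil3 (0.76). Of the 11, 9 were well above background on all 6 arrays. The others, F13a1 among them, passed the filter only through their L1-Tg arrays and were higher. The difference of F13a1 was thus taken partly against WT signal at background. The summed monocyte signal was 62.6 to 69.7 times the 75th percentile in L1-Tg and 50.8 to 77.4 times in WT. Of 12 Kupffer cell markers, 11 were higher, with a median of 0.31 and 0 at an unadjusted p under 0.05. Their summed signal was 174 to 206 times in L1-Tg and 110 to 204 times in WT, and the lowest p-values were those of Cd5l (0.63), C1qb (0.49) and C1qa (0.47). Relative to each gene's mean in WT, the Kupffer median was lowest on L1-Tg 2 (0.21) among L1-Tg arrays. Among WT arrays it was highest on WT 3 (0.52), and the median of the interferon-induced list had both of these extremes too.

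Of 12 neutrophil markers, 7 were tested, 5 of them higher, with a median of 0.54 that was 0.21 without L1-Tg 2, 0.20 without WT 1 and 0.15 after normexp. Of the 7, only 5 were well above background on all 6 arrays. The others passed the filter only through their L1-Tg arrays and are among the higher ones. Their differences were therefore taken partly against WT signals at background. Cxcr2 and Mmp9 were well above background on no array. S100a8 (0.99) and S100a9 (0.87) did not pass an unadjusted p of 0.05, and Csf3r, whose probe gave most of the summed signal, had a difference of -0.24 at an unadjusted p of 0.031. The summed neutrophil signal was 179 to 198 times in L1-Tg and 211 to 259 times in WT. Of 12 tested lymphocyte markers, 8 were higher, with a median of 0.36 that was 0.14 without WT 1, 0.61 without WT 2 and 0.060 after normexp. Of the 12, 9 were well above background on all 6 arrays. The others, Cd79a among them, passed the filter only through their L1-Tg arrays and were all higher in L1-Tg. Cd3e had a difference of -0.30 at an unadjusted p of 0.045 in limma, followed by Cd79a (0.36) and Cd4 (-0.71). The summed lymphocyte signal was 91.7 to 110 times in L1-Tg and 102 to 239 times in WT, of which the Cd4 probe alone gave up to 90.8 times in L1-Tg and 83.8 to 217 times in WT. Of 10 hepatocyte markers, 1 was higher and 9 were lower, with a median of -0.11, and the lowest p-values were those of Apoa1 (-0.49, the only one at an unadjusted p under 0.05), Hnf4a (-0.13) and Tat (-0.36). The part of any of these cell types in the Ly6 values was not tested.

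**Figure D4:**
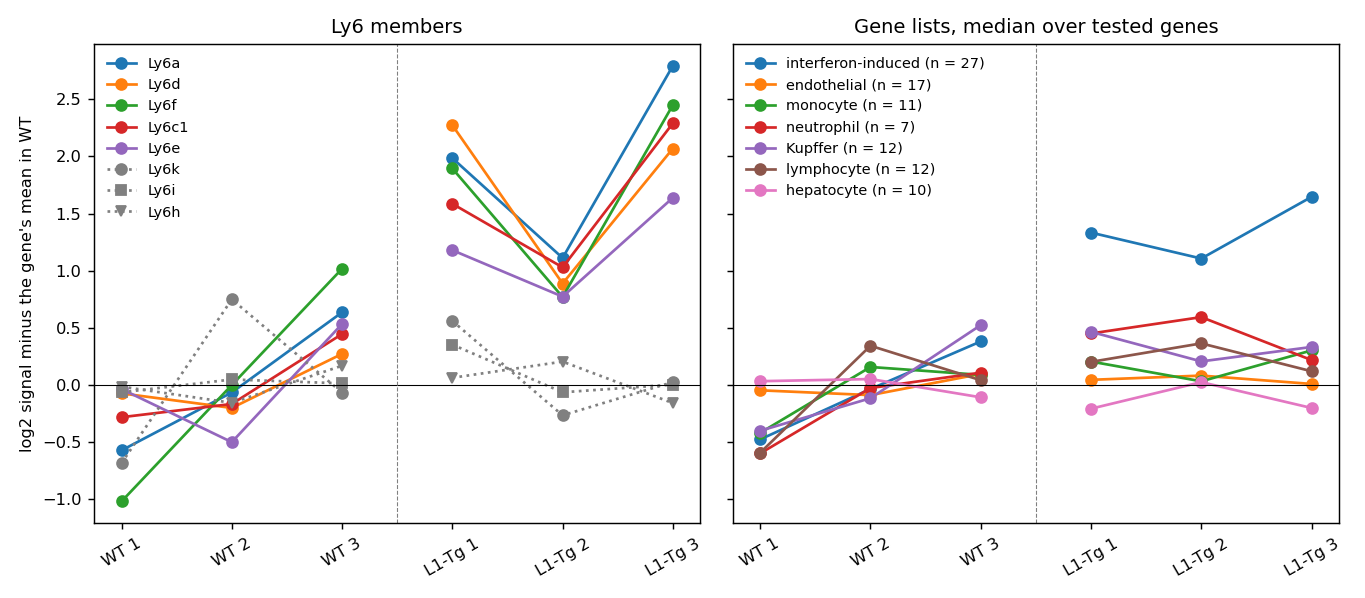
Log2 signal of each array minus the gene's mean in WT, for the 8 tested Ly6 members (left) and as the median over the tested genes of each list (right); lines join arrays of a genotype only to follow a gene or list. Ly6a, Ly6c1, Ly6d, Ly6e and Ly6f and the interferon-induced and Kupffer lists are lowest on L1-Tg 2 among L1-Tg arrays. They are also highest on WT 3 among WT arrays. The endothelial median, also highest on WT 3 among WT arrays, stays between -0.09 and 0.10.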

How the data were processed

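Gene expression was measured in 6 pools of liver RNA, 3 L1-Tg and 3 WT, grouped by the genotype in their labels. The authors hybridized Cy3-labeled cRNA to Agilent arrays, whose design uses mm9, and processed the scans with Agilent Feature Extraction 10.10.1.1. The deposited processed signals are linear intensities whose background had been corrected on each array separately, without a scaling across arrays. The deposited value table holds the same intensities multiplied by 1 factor per array, between 2.46 and 2.98, whose origin is not given in the sources used here. The deposited marks of spots well above background served as the filter, and no spot was saturated.

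From 62976 spots, 3671 controls were left out, spots marked non-uniform (1 to 22 per array) were treated as missing, and spots of 1 probe were averaged. The log2 values were computed here from the deposited intensities, minus the 75th percentile of the array. A gene symbol was found for 27235 of the 28685 probes named after a RefSeq transcript, and Ly6 probes were matched through these names. The probe with the highest mean stood for a gene, and a gene was tested where every array of L1-Tg, of WT or of both was well above background. The test was limma 3.58.1 (R 4.3.3), two-sided, through lmFit with eBayes, and the Benjamini-Hochberg adjustment covered 22326 genes. The index was computed on linear signals divided by the 75th percentile, without a filter. Of the 10 members, 4 had windows in the RefSeq promoter table (GRCm38.p6), which were aligned with Biopython 1.88. Because the array design uses another build, only the order of genes was taken from the annotation.

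The text names the 10 members with every probe, the genes with the smallest limma p of each list (up to 3, and any past the threshold), the 3 genes closest to each member and Npc1l1. Other list genes (S100a8, S100a9, Csf3r, Cxcr2, Mmp9, Gml2) were named after their values were seen, and 1 list gene is not reported here. The members and lists were chosen with earlier results of these data known. The procedure was tested on simulated data. Alternatives concerned the scaling (quantile, median, none, the authors' factors), normexp with an offset of 50, the filter, the probes, a replicate block, the variance model, the form of the index and each array left out. Normexp was run on median signals in place of mean signals, a choice made after seeing the data.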

Additional observations from a re-analysis of the deposited data

How the results depend on the processing

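No Ly6 member passed the adjusted threshold of limma in any alternative that kept the adjustment. With no adjustment, 5 members had a p under 0.05 in limma, and this count was 4 or 5 under the alternatives, with 4 of 6 members for the filter on all 6 arrays. A share over all genes is given above only for the main fit and, in either direction, for the fit without moderation of the variances. Ly6a, Ly6c1, Ly6d, Ly6e and Ly6f were higher in L1-Tg under every alternative that tested them. Over the fits that left out 1 array each, the number past the adjusted threshold was 0 to 0, the number with groups that do not overlap 4 to 5, the number past the index 4 to 5 and the median difference 1.14 to 1.67. The shares of all genes that did not overlap or passed the index in these fits are not given here. The counts alone therefore do not show how stable the family is. The median was 0.86 after the normexp correction on median signals, in which Ly6f was at 0.52, and 1.18 to 1.53 under the others. With normexp the differences of Ly6h, Ly6i and Ly6k were -0.12, -0.033 and -0.044. With 1 array left out they ran from -0.047 to 0.13 for Ly6h, from -0.030 to 0.18 for Ly6i and from -0.23 to 0.48 for Ly6k. The sign turned without L1-Tg 2 or WT 2 for Ly6h, without L1-Tg 1 for Ly6i and without L1-Tg 1 or WT 1 for Ly6k, and the cause was not tested. Ly6f could not be tested with the filter on all 6 arrays, nor could Ly6k.

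Across the scalings the share of all genes with each L1-Tg array above each WT array was between 4.94% and 11.2%, against 4 of 8 members throughout. The replicate numbers did not pair the pools (correlations of deviations -0.16, 0.11 and 0.019), and a replicate block called 11 genes in place of 29 and 0 members, with a smallest adjusted p among members of 0.116 for Ly6e in limma. Without the filter on dim probes limma called 10 genes, and without moderation of the variances 0. Signal over background limits Ly6f and Ly6k, of which 4 and 5 of the 6 arrays were well above background. The probe of Ly6h was well above background on all 6 arrays, but it was also dim. Its signals of 0.0947 to 0.122 times the 75th percentile lay within the range of the L1-Tg signals of Ly6f.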
